A study of Mus musculus with 10 samples.

Results

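The SWI/SNF subunit genes described here are Arid1a, its paralog Arid1b, the ATPase genes Smarca4 and Smarca2, and the accessory subunit genes Ss18, Dpf2, Bcl7a, Bcl7b and Bcl7c. All 9 genes were found by symbol in the RefSeq table for GRCm38.p6, whose coordinates are those of mm10, among 21631 protein-coding genes on autosomes and X. Every peak inside a gene or within 10 kb of it was taken, which gave 94 of 61345 peaks on these chromosomes in the 10 lists. After overlapping peaks were merged these made 16 of 12266 distinct regions. SWI/SNF (BAF) complexes use ATP to slide or evict nucleosomes. Each canonical BAF complex holds either ARID1A or ARID1B and either SMARCA4 (BRG1) or SMARCA2 (BRM), while DPF2, SS18 and the BCL7 proteins are further subunits. ARID1A is among the subunits most often mutated in human liver cancer.

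ATAC-seq, a transposase assay of accessible DNA, was run on frozen liver tumours of FVB mice carrying a liver-promoter (LAP) tetracycline activator and a TRE-MYC transgene that is switched on when doxycycline is withdrawn. Homo tumours (n = 3, about 100 days) had 2 floxed Arid1a alleles and Alb-cre, Het tumours (n = 3, about 70 days) had 1 floxed allele and Alb-cre, and WT tumours (n = 4, about 55 days) had 2 floxed alleles (Arid1aflfl in the labels) without Cre. Age and the presence of Cre differ along with genotype and cannot be told apart from it. Cre under the albumin promoter acts in hepatocytes, and any cells of a tumour in which it did not act keep Arid1a. Fewer cells of a type and less open DNA per cell cannot be told apart in bulk tumours. The titles do not say that each library came from a separate mouse, so the spread behind each p-value is between libraries and may be technical.

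The lists differed in size and depth. They held 1763 (Homo 2) to 9618 (Homo 3) peaks, and depth, taken as the background tags recovered from the authors' values, ranged from 0.464 in Homo 2 to 1.75 in WT 1. Homo 2 and Homo 3 lay at opposite extremes of list length, so counts for the Homo group rest on unlike libraries. A set of 5179 regions had a peak in each of the WT libraries, and 52.6% of it was also found in Homo 1, 26.7% in Homo 2, 98.3% in Homo 3, 79.6% in Het 1, 68.6% in Het 2 and 39.6% in Het 3. Of 10 hepatocyte markers 7 had a peak within 1 kb of a start in at least 1 library, with 0 to 7 per Homo, 1 to 2 per Het and 2 to 6 per WT library. Markers of other cell types were nearly absent in that window, with 0 of 6 endothelial, 0 of 6 stellate and fibroblast and 0 of 6 lymphocyte genes, 1 of 6 macrophage genes (Spi1, at most 1 gene in a Homo library, 0 in Het and WT) and 1 of 6 cholangiocyte genes (Epcam, 0 in Homo and Het, at most 1 in a WT library).

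Promoter sequence was set beside the peaks for the genes whose start regions carry the results. The table of RefSeq promoters used here (GRCm38.p6) was matched for 7 of the 9 genes, with 2 starts for Arid1a; Ss18 and Bcl7a were not matched. The 250 bases before a start are shown 5′ to 3′ on the strand of the gene, in lower case, with matches to the GC box (GGGCGG) and the E-box (CACGTG, the site bound by MYC and MAX) in capitals, read on either strand and allowed to overlap. The Arid1a stretches lie at chr4:133753986-133754235 (inner start, minus strand) and chr4:133756770-133757019 (outer start, minus strand), those of Smarca4 at chr9:21615919-21616168 (plus strand), of Bcl7b at chr5:135168122-135168371 (plus strand) and of Bcl7c at chr7:127708767-127709016 (minus strand).
Arid1a inner start: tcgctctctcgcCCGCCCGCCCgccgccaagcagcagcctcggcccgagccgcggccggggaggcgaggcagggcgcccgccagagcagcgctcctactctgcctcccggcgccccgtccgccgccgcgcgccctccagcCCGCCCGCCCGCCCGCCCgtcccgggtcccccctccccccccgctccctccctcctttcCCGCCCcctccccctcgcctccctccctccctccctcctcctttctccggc
Arid1a outer start: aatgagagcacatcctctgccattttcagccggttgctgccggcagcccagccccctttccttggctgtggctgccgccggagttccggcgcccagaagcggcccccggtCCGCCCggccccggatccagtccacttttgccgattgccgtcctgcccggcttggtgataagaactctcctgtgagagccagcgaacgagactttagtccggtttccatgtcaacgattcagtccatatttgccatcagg
Smarca4 start: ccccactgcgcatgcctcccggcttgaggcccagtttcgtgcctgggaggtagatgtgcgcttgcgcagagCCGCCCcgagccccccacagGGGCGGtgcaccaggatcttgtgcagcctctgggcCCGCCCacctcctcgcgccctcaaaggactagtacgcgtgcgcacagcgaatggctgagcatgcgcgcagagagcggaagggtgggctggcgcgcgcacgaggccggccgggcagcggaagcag
Bcl7b start: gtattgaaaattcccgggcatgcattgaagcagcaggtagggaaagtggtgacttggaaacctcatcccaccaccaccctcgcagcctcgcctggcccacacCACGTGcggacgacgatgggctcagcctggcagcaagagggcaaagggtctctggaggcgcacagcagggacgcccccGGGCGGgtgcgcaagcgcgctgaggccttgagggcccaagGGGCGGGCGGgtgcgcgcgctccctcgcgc
Bcl7c start: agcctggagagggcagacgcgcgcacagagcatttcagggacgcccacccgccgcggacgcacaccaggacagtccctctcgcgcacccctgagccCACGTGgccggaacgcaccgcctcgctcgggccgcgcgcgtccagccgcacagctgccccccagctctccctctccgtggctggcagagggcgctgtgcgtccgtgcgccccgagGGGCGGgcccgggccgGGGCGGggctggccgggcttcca

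The inner Arid1a stretch was 81.6% G and C with 33 CpG, and the outer one 61.2% with 18 CpG, against medians of 55.6% and 10 CpG over 21045 promoter stretches of 17274 protein-coding genes. It held 7 GC-box matches and the outer stretch 1. A GC box was found in 7 of the 8 member stretches and in 43.1% of all stretches. The member stretches held 57.2% (Dpf2) to 81.6% (inner Arid1a) G and C, each above the median, and the shares were not matched for this. An E-box was found in 2 of 8, those of Bcl7b and Bcl7c, and in 6.7% of all. The other motifs searched, on both strands, were the ETS core CCGGAAG (1 of 8, Smarca2, against 9.08%), CCAAT (1 of 8, Dpf2, against 35.6%), AP-1 TGANTCA (0 of 8, 6.17%) and the longer consensus motifs of NRF1 (0 of 8, 1.08%) and YY1 (0 of 8, 0.394%). These matches describe the letters only.

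Arid1a, the gene targeted in the mice, had its peak just before the inner of its 2 annotated starts and not at the outer one, which lies 2784 bp farther upstream. This region (mm10 chromosome 4, 133754054 to 133754577) lay 69 to 592 bp upstream of the inner start and 2192 bp inside the gene's outer limit (gene 133679008 to 133756769). It was called in 1 of 3 Homo, 2 of 3 Het and 4 of 4 WT libraries. The authors' fold over background at the peak was 6.88 in Homo 3, with no peak in Homo 1 or Homo 2. The fold was 5.81 in Het 1 and 4.62 in Het 3, with no peak in Het 2, against 5.64, 6.78, 4.68 and 5.28 in WT 1 to WT 4. The Homo 3 fold lies above the 4 WT folds, and the Het folds lie within or just below the WT range. The authors' fold adds a constant to both tags and background. As plain tags over background, Homo 3 (40 over 4.96) lies below WT 2 (31 over 3.72). The presence difference was not significant for Homo against WT (two-sided Fisher's exact test p = 0.143, adjusted p = 0.743 over all regions) or for Het against WT (p = 0.429, adjusted p = 0.853). The labels do not say which part of Arid1a is floxed, so a peak here does not check the deletion.

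Summits at the Arid1a inner start lay 403 bp upstream in Homo 3, 408 bp in Het 1 and 523 bp in Het 3, and 386 to 404 bp upstream in the 4 WT libraries. The Het 3 summit stands apart from the other 6, in a peak 205 bp wide. The peaks rested on 40 tags in Homo 3, 17 in Het 1 and 17 in Het 3, against 21 to 31 tags in the WT libraries. Thinned to the depth of Homo 1, with their local background thinned alike, the 4 WT peaks would average 15.1 to 25.1 tags, and each would be called with a calculated chance of 95.8% to 100%. The chance was 51.8% to 94.1% at the depth of Homo 2, on 7.69 to 12.7 tags, and 81.6% to 99.7% at the depth of Het 2, on 10.9 to 18 tags. Homo 1, Homo 2 and Het 2 held only 52.6%, 26.7% and 68.6% of all regions called in every WT library, and the part of this general shortfall in the missing Arid1a peaks was not tested.

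Homo 1 instead had the only peak near the outer start, at 133757130 to 133757427, 361 to 658 bp upstream of it. Its fold was 4.46 on 17 tags, at rank percentile 21.5 of the list (100 is the strongest peak by −log10 p). No other library had a peak there, and none of the 10 had one over the outer stretch shown above, while 6 libraries had a peak reaching into the inner stretch. A further region within 10 kb, past the other end of Arid1a (133672208 to 133672966), covers an annotated start of the neighbour Pigv, a mannosyltransferase of GPI anchor synthesis. It was called in 2 of 3 Homo, 3 of 3 Het and 4 of 4 WT libraries, with folds of 5.30 in Homo 1 and 7.23 in Homo 3. Its folds were 5.19, 6.80 and 4.63 in Het 1 to Het 3, against 6.81, 7.49, 4.72 and 7.01 in WT 1 to WT 4, so the groups overlap. With this region counted, Arid1a had a peak in every library except Homo 2.

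**Figure D1:**
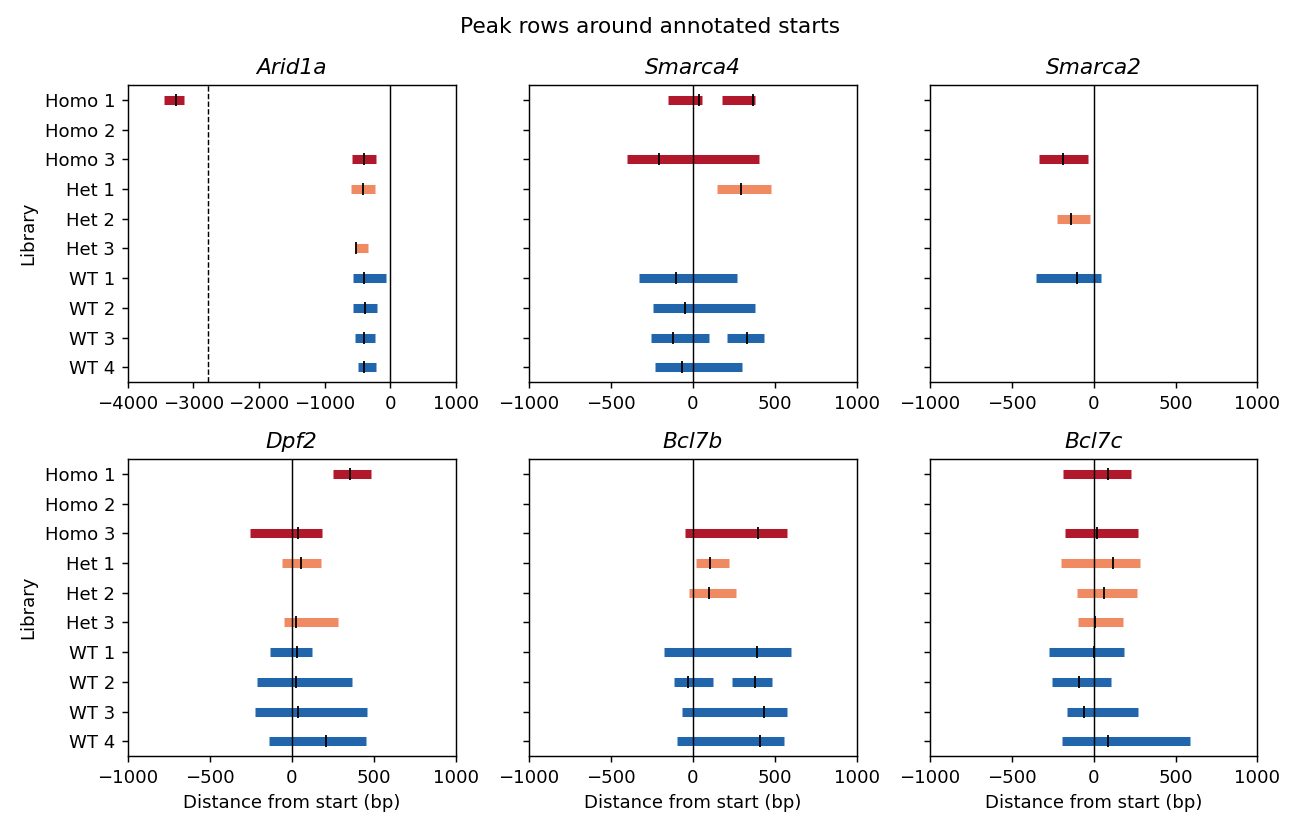
Peaks around annotated starts of 6 genes, one row per library (red Homo, orange Het, blue WT); bars span each peak, ticks mark summits, the horizontal axis is distance from the start in bp along the gene, and the dashed line is the outer Arid1a start. At Arid1a, 7 libraries have their peak just before the inner start, and the Homo 1 peak lies before the outer start.

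Arid1b, the paralog that can replace Arid1a in the complex, had a weak start region and a stronger one deep inside the gene (chromosome 17, 4994297 to 5347656, plus strand). The inner region (5189704 to 5190348) lies 194.6 kb past the annotated start of this 353 kb gene. It was called in 3 of 3 Homo, 2 of 3 Het and 4 of 4 WT libraries, and Het 2 alone lacked it. Folds were 6.36, 6.55 and 8.29 in Homo 1 to Homo 3, 7.37 in Het 1 and 8.96 in Het 3, against 7.22, 7.95, 8.41 and 6.33 in WT 1 to WT 4. The 3 groups overlap. In Homo 2, the shortest list, this peak stood on 10 tags at rank percentile 55.3. Peaks within 10 kb of Arid1b gave p = 1 for Homo against WT (two-sided Fisher's exact test, adjusted p = 1).

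Of 734 regions of the series that lay inside a protein-coding gene and over 10 kb from every gene start or end, 8.31% were called in at least 9 libraries, against 13.1% of all 12266 regions; this comparison was chosen after the values were seen. The Arid1b start region (4993964 to 4994631) was called in 1 of 3 Homo, 0 of 3 Het and 2 of 4 WT libraries. Its folds were 4.84 in Homo 1, against 4.49 in WT 2 and 4.85 in WT 4. It ends 443 bp before the annotated start used here, and its summits lay 627 to 1033 bp upstream of that start. The region nevertheless spans the gene's outer limit at 4994297. Its summits lay at 4994041 in Homo 1, 4994292 in WT 2 and 4994447 in WT 4. Of the regions inside each gene, the most often called lay within 1 kb of a start in Arid1a, with 7 libraries, and far from the start in Arid1b, with 9 libraries.

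**Figure D2:**
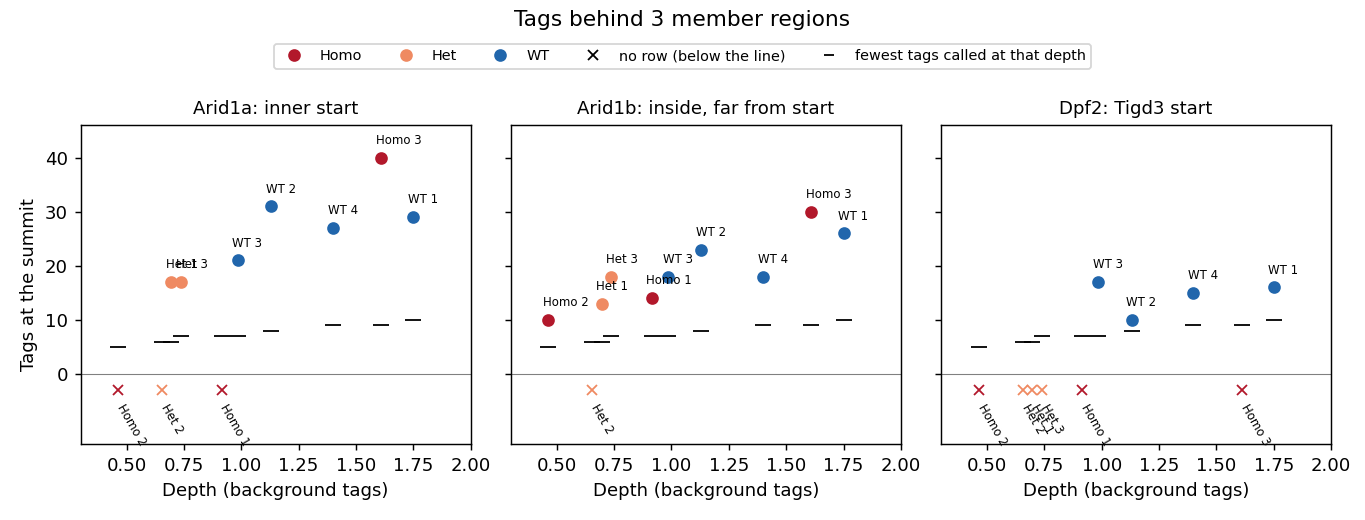
Tags at the summit (vertical axis) against library depth in background tags (horizontal axis) for the Arid1a inner start, the Arid1b inner region and the Tigd3 start near Dpf2; points are libraries with a peak, crosses below the line libraries without one, and dashes the fewest tags called at that depth. Homo 3 has 40 tags at Arid1a, and Homo 2 has 10 at Arid1b.

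Smarca4, the BRG1 ATPase gene, had a region over its start (chromosome 9, 21615771 to 21616644) in 2 of 3 Homo, 1 of 3 Het and 4 of 4 WT libraries. Folds of the strongest peak were 5.86 in Homo 1 and 8.30 in Homo 3, 5.79 in Het 1, and 8.38, 6.98, 7.45 and 8.14 in WT 1 to WT 4. Homo 1 and Het 1 lie below every WT library in the authors' fold, and Homo 3 lies within the WT range. For Homo 1 this order depends on the constant in that fold. As plain tags over background, Homo 1 (12 over 1.22) lies above WT 2 (24 over 2.58). Homo 1 and WT 3 each had 2 separate peaks where the others had 1. The summit of the strongest peak lay 205 bp upstream in Homo 3 and 36 bp downstream in Homo 1, 297 bp downstream in Het 1, and 47 to 123 bp upstream in the WT libraries. Presence did not pass the test for Het against WT (two-sided Fisher's exact p = 0.143, adjusted p = 0.598) or for Homo against WT (p = 0.429, adjusted p = 0.748). With the lists thinned to equal depth Smarca4 was called in every WT and no Het library, a pattern of 0.929% of all genes in those lists. Thinning was a single random draw, and the pattern rests on the loss of the Het 1 peak (13 tags) in it. Another draw could keep that peak, and the pattern would then be absent. At that depth the 4 WT start peaks would each be called with a calculated chance of 78.3% to 90.6%, so a draw could also lose them. The pattern is therefore not read as a result about Smarca4. In the full lists without Het 1, Smarca4 had the same pattern, as did 13.4% of all genes.

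A second Smarca4 region inside the gene (21628645 to 21628888) was called in 0 of 6 Homo and Het libraries and in WT 2 and WT 4, with folds of 7.46 and 6.47. Smarca2, the alternative ATPase gene (BRM), was the member called least often. Its start region (chromosome 19, 26604810 to 26605206) was called in 1 of 3 Homo, 1 of 3 Het and 1 of 4 WT libraries. The folds were 5.44 in Homo 3, 4.71 in Het 2 and 8.44 in WT 1, where it reached rank percentile 78.8, against 12.9 in Homo 3 and 0.8 in Het 2. A peak inside the gene, 143013 bp from the start, was called in WT 2 only, with a fold of 5.31 on 11 tags.

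Dpf2, which encodes a PHD-finger subunit that reads histone tails, had a region over its start (chromosome 19, 5912390 to 5913126) in 2 of 3 Homo, 2 of 3 Het and 4 of 4 WT libraries. Folds were 5.36 in Homo 1 and 8.73 in Homo 3, 7.14 in Het 1 and 7.43 in Het 3, against 6.21, 8.62, 7.20 and 6.47 in WT 1 to WT 4. Homo 2 and Het 2 lacked it, and the folds of the 3 groups overlap. The region also covers the start of the noncoding gene Gm42067, so its peaks cannot be assigned to Dpf2 alone. Presence at Dpf2 gave p = 0.429 for Homo against WT (two-sided Fisher's exact test, adjusted p = 0.748).

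The region past the other end of Dpf2 was the only one of the 16 absent from the 6 Homo and Het libraries but present in all 4 WT libraries. It lies at 5894002 to 5894360, 2156 bp from Dpf2, and covers the start of Tigd3, a gene of the transposase-derived TIGD family. In the WT libraries its folds were 5.78, 4.26, 7.63 and 6.06 in WT 1 to WT 4, on 10 to 17 tags. The WT rank percentiles were 20.1, 0.1, 74.3 and 27.8, so the WT 2 peak stood near the end of its list. Among all regions tested, 0.289% were called in no Homo and every WT library and 0.0165% in the reverse. The shares for Het against WT were 4.37% and 0.00877%, and those for Het and Homo together against WT were 0.13% and 0%. No member region had such a pattern between Homo and Het, where 0.307% of all regions were called in every Homo and no Het library and 0.0767% in the reverse. Fisher's exact test gave p = 0.0286 for Homo against WT (adjusted p = 0.743), p = 0.0286 for Het against WT (adjusted p = 0.653) and p = 0.00476 for Het and Homo against WT (adjusted p = 0.704). In all 3 comparisons the pattern was absent with lists of equal length, with lists thinned to equal depth and with a stricter −log10 p of 10. These settings only remove peaks, so the pattern ended because WT peaks dropped out. Thinned as for Arid1a, the WT 1 peak would be called with a calculated chance of 100% at the depth of Homo 3. Homo 3 (depth 1.61) is deeper than WT 2 (1.13), WT 3 (0.985) and WT 4 (1.4), so their peaks were not thinned. The 100% for these libraries was therefore fixed in advance. For the 4 WT peaks the chance was 66.6% to 100% at the depth of Homo 1 and 18.5% to 88.9% at that of Homo 2. It was 42.3% to 99.7% for Het 1, 33.3% to 99.2% for Het 2 and 26.8% to 99.7% for Het 3. The part of depth in the missing peaks was not tested.

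Ss18, whose product joins the BAF complex and is fused to SSX in human synovial sarcoma, had 1 region inside the gene (chromosome 18, 14682486 to 14683391), 1028 bp from the higher-coordinate end. It was called in 3 of 3 Homo, 1 of 3 Het and 4 of 4 WT libraries. Folds were 6.64, 5.56 and 6.67 in Homo 1 to Homo 3, 6.52 in Het 2, and 6.67, 6.78, 6.11 and 6.49 in WT 1 to WT 4. It was 1 of the 2 member regions called in Homo 2, with the Arid1b inner region. The counts gave p = 0.4 for Homo against Het (two-sided Fisher's exact test, adjusted p = 1) and p = 0.143 for Het against WT (adjusted p = 0.598). Without Het 2 the region was called in every Homo and WT library and in neither remaining Het library. In those lists 7.55% of all regions were called in no Het and every WT library, and 0.58% in no Het and every Homo library.

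The 3 Bcl7 genes encode small BAF subunits and differed in how often they were called. Bcl7c (chromosome 7, region 127708176 to 127709040 over its start) was called in 2 of 3 Homo, 3 of 3 Het and 4 of 4 WT libraries. Its folds were 6.45 in Homo 1 and 7.93 in Homo 3, 7.55, 5.10 and 6.07 in Het 1 to Het 3, against 7.21, 6.06, 5.10 and 5.77 in WT 1 to WT 4. Only Homo 2 lacked it, and the folds of the 3 groups overlap. The microRNA gene Mir762 has an end within 1 kb of the region. Bcl7c was the member called in most libraries within 1 kb of a start, 9 of 10, a number reached or passed by 6.98% of all genes.

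Bcl7b had a region over its start (chromosome 5, 135168197 to 135168970) in 1 of 3 Homo, 2 of 3 Het and 4 of 4 WT libraries. The strongest folds were 8.74 in Homo 3, 5.73 in Het 1 and 4.64 in Het 2, against 5.0, 5.66, 6.6 and 7.23 in WT 1 to WT 4. Homo 3 lies above all WT folds, while Homo 1 and Homo 2 had no peak. A second region within 10 kb (135186763 to 135187663) covers the start of the neighbour Baz1b, which encodes the WSTF subunit of an ISWI-type remodeller. It was called in 1 of 3 Homo, 3 of 3 Het and 4 of 4 WT libraries, with folds of 8.06 in Homo 3, 6.49, 7.20 and 6.72 in Het 1 to Het 3, and 5.83, 7.18, 7.10 and 9.03 in WT 1 to WT 4. With both regions counted, Bcl7b had the lowest p for Homo against WT among the 9 genes (two-sided Fisher's exact p = 0.143, adjusted p = 0.599). Without Homo 3 it was called in no Homo library and in every Het and every WT library. In those lists 23.1% of all genes were called in no Homo and every WT library, and 4.33% in no Homo and every Het library.

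Bcl7a (chromosome 5, region 123344207 to 123344615 over the lower-coordinate end) was called in 1 of 3 Homo, 1 of 3 Het and 3 of 4 WT libraries. Its folds were 4.81 in Homo 3, 4.70 in Het 1, and 5.0, 8.05 and 5.37 in WT 1, WT 2 and WT 4. The noncoding gene Gm15860 has an end within 1 kb, so this region too cannot be assigned to a single gene. Presence gave p = 0.486 for Homo against WT (two-sided Fisher's exact test, adjusted p = 0.748).

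**Figure D3:**
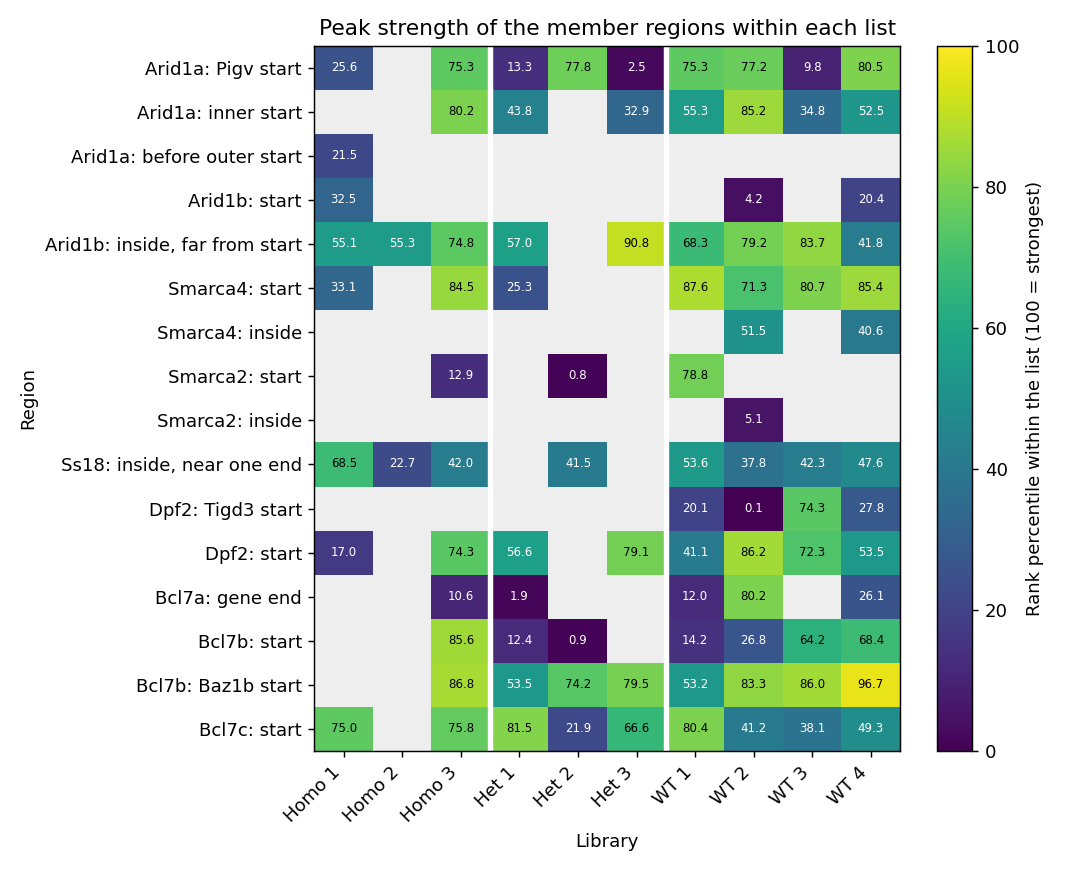
Rank percentile within each list (colour and number, 100 the strongest peak by −log10 p) of the 16 regions (rows) in the 10 libraries (columns, grouped as Homo, Het and WT); grey marks no peak. The Tigd3 start near Dpf2 has values in all 4 WT libraries and in no other, and Homo 2 has values in 2 rows.

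**Figure D4:**
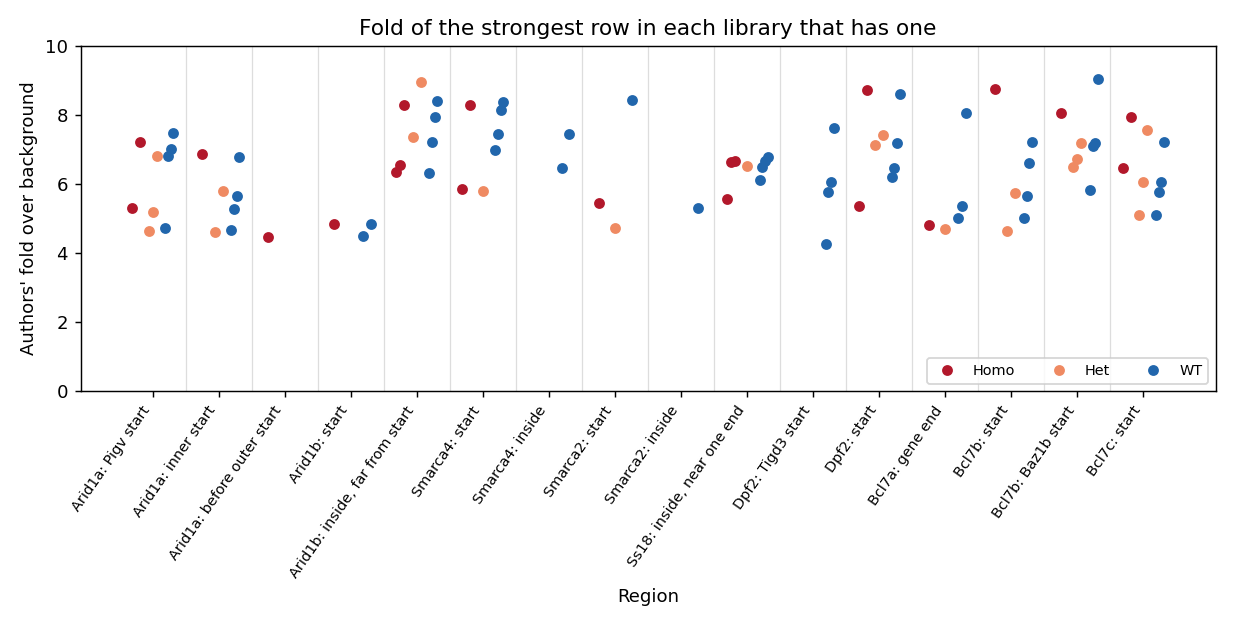
The authors' fold over background (vertical axis, linear from 0) of the strongest peak in each region (horizontal axis), 1 point per library that has a peak, red Homo, orange Het and blue WT. The folds range from 4.26 to 9.03, and in most regions with points from several groups these overlap.

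Homozygous loss was set against WT over whole genes to ask which subunit genes lose or gain open regions. None of the 9 genes (0 of 9) was called in every library of a group and in no library of the other. Over the 11912 genes tested, 0.227% were called in no Homo and every WT library and 0.00839% in every Homo and no WT library. The share of libraries with a peak was lower in Homo than in WT at 7 of the 9 genes and equal at Arid1b and Ss18, but without Homo 2 it was lower only at Bcl7a and Bcl7b, 2 of 9, and equal at the other 7. With lists of equal length it was lower at 5 genes, equal at Smarca2 and higher in Homo at Arid1b, Ss18 and Bcl7c, and within 1 kb of a start it was higher in Homo at Smarca2. No gene of the series passed an adjusted p of 0.05 (two-sided Fisher's exact test), where 0.0286 is the smallest p the design allows and 28 genes had an unadjusted p under 0.05.

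Heterozygous loss against WT also gave 0 of 9, while 4.74% of 11639 genes were called in no Het and every WT library and 0.00859% in the reverse. Presence was lower in Het at 6 of 9 genes and equal at Arid1a, Bcl7b and Bcl7c, and without Het 2 it was lower at 4 and equal at 5. It was higher in Het at Arid1a, Bcl7b and Bcl7c at equal depth, at Arid1a and Bcl7c with lists of equal length and at Smarca2 within 1 kb of a start, where Arid1a and Bcl7b were lower. Again 0 genes passed adjustment, and 553 had an unadjusted Fisher's exact p under 0.05. Homo against Het gave 0 of 9, beside 0.42% of 11191 genes called in every Homo and no Het library and 0.0447% in the reverse; 0 genes had an unadjusted Fisher's exact p under 0.05, since the smallest possible is 0.1. Presence was higher in Homo at Arid1b, Smarca4 and Ss18, lower at Arid1a, Bcl7b and Bcl7c and equal at the other 3. Without Homo 2 it was higher at 6 and lower at Bcl7b alone, and without Homo 3 it was higher at 3 and lower at 6. All 6 Het and Homo libraries against WT gave 0 of 9, beside 0.117% of 11997 genes called in none of the 6 and every WT library and 0% in the reverse, with 462 unadjusted Fisher's exact p under 0.05 and none after adjustment. These comparisons share the same libraries, so they do not add to each other.

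Within 10 kb, 6, 2 and 9 of the 9 genes had a peak in Homo 1 to Homo 3, 7, 5 and 5 in Het 1 to Het 3, and 9, 9, 7 and 8 in WT 1 to WT 4. Of the 11997 genes with a peak in at least 1 library, the shares were 41%, 19.1% and 88.8% in Homo 1 to Homo 3, 61.4%, 51% and 28% in Het 1 to Het 3, and 86.7%, 80.6%, 68.9% and 81.6% in WT 1 to WT 4. The 9 genes were called in a median of 8 libraries, against 7 for those 11997 genes. Within 1 kb of a start, 8 of the 9 genes had a peak in at least 1 library, with a median of 7 libraries, against 44% of all genes and a median of 6 among the 9507 genes with such a peak. Ss18 was the member without one. A strand and start were matched for 17274 of the 21631 genes. For the rest, Ss18 and Bcl7a among them, both gene ends were counted as starts.

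Among the regions, 10 of the 16 had a peak in each WT library. Of these 10, 6 were found in Homo 1, 2 in Homo 2 and 9 in Homo 3, and 8, 5 and 6 in Het 1 to Het 3. As shares these were 60%, 20% and 90% in Homo 1 to Homo 3 and 80%, 50% and 60% in Het 1 to Het 3, beside the shares over all 5179 such regions given above. Of the 16 regions 56.2% were called in at least 7 libraries, 18.8% in at least 9 and 0% in all 10, beside 34.6%, 13.1% and 5.27% of all regions.

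**Figure D5:**
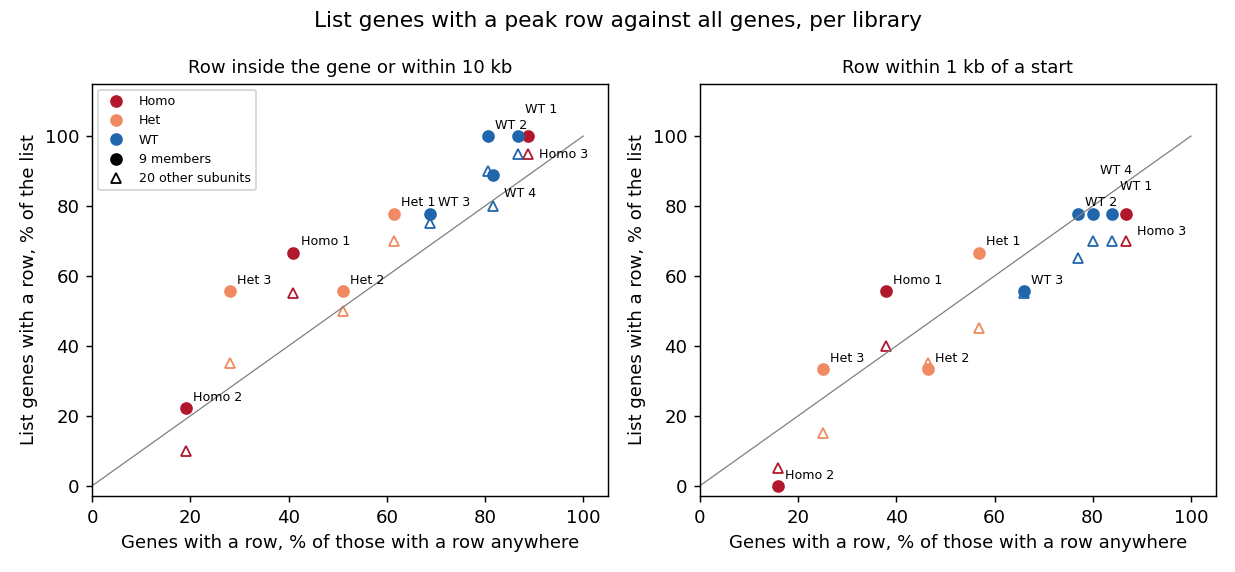
Share of the 9 members (filled points) and of 20 other SWI/SNF subunit genes (open triangles) with a peak, per library (vertical axis, %). The horizontal axis is the share (%) with a peak in that library among genes with a peak in at least 1 library. Peaks lie within 10 kb (left) or within 1 kb of a start (right), and the line marks equal shares. Homo 2 is lowest and Homo 3 highest or level with WT libraries in both panels.

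The rest of the family was described with 20 other subunit genes of the core, PBAF and noncanonical BAF complexes. All 20 had a peak within 10 kb in at least 1 library, with a median of 7 libraries, and 16 of 20 within 1 kb of a start. Peaks within 10 kb were called at 11, 2 and 19 of the 20 in Homo 1 to Homo 3, at 14, 10 and 7 in Het 1 to Het 3, and at 19, 18, 15 and 16 in WT 1 to WT 4. In Het against WT, 1 of 20 was called in no Het and every WT library, beside 4.74% of all genes. That gene was Smarcd1, a core subunit that links the complex to transcription factors, called in 1 of 3 Homo, 0 of 3 Het and 4 of 4 WT libraries (two-sided Fisher's exact p = 0.0286 for Het against WT, adjusted p = 0.598). Within 1 kb of a start Actl6a, an actin-related core subunit gene, joined it with 1 of 3 Homo, 0 of 3 Het and 4 of 4 WT libraries (two-sided Fisher's exact p = 0.0286 for Het against WT, adjusted p = 0.522), which made 2 of 20 beside 5.47% of all genes. Within 10 kb the other 3 comparisons gave 0 of 20, and no gene passed adjustment in any direction.

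Across the 10 libraries, 910 other genes had the same pattern of called and missing peaks within 10 kb as Arid1a. The Het 2 call in this pattern rests on the region over the Pigv start alone. By the rank percentile of the strongest peak, with 0 where none was called, the 5 genes most like Arid1a were Fkbp15 and Slc31a1 (Pearson r = 0.973 each over 10 libraries), Mical1 and Smpd2 (0.954 each) and Atg10 (0.952). In Homo 1, Het 2, WT 1 and WT 4 the strongest peak within 10 kb of Arid1a was the one over the Pigv start. The likeness therefore rests partly on the start of a neighbour. Among 11988 genes 99 had an r above 0.9. Fkbp15 and Slc31a1 lie close together on chromosome 4 and Mical1 and Smpd2 on chromosome 10, so each pair can share peaks, and all genes share the depth of the libraries.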

How the data were processed

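ATAC-seq peak lists of 10 libraries (3 Homo, 3 Het and 4 WT) were analysed. Reads were aligned with Bowtie2 to mm10 and peaks called with MACS2, with deepTools also named, per the submitters' processing notes. Not given in the sources used here are versions, read filters, the transposase shift, calling settings and read totals. The lists were deposited separately for each library. The deposited fold is the ratio of tags over local background at the summit, with the same constant added to both. The constant lowers the fold more where background is low, so folds from lists of unlike depth are not fully comparable. The deposited −log10 p was used for within-list ranks, from 0 (weakest) to 100, and the deposited −log10 q and score columns were not used.

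Peaks sharing at least 1 bp were merged into regions. A gene was called in a library with a peak inside it or within 10 kb. Gene positions came from the RefSeq table of GRCm38.p6. Tags and background at each summit were recovered from fold and −log10 p (Poisson, tolerance 0.001) for 99.88% to 99.97% of peaks, and depth is the lowest shared background. Presence was compared by two-sided Fisher's exact test over all genes or regions with a call, with Benjamini-Hochberg adjustment at 0.05. The test code was tested on simulated data.

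The members, the gene lists and the marker lists were chosen with earlier results of these data known. Named genes were the 9 members, other subunits called in all of one group and none of another or in no library, the 5 genes most like Arid1a, and neighbours with an end within 1 kb of a member region; Pigv and Pbrm1 were named after their values were seen. Alternatives were a window of 1 kb around starts, −log10 p of at least 10, lists cut to the strongest 1763 peaks, thinning to equal depth, 50% overlap, leaving out each replicate and a replicate block. Thinning to equal depth was a single random draw per list. Where no promoter was matched to a gene, both of its ends served as starts. Python 3.11.15, numpy 2.4.6, pandas 2.3.3, scipy 1.17.1 and matplotlib 3.10.9 were used.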

Additional observations from a re-analysis of the deposited data

Results flagged for a closer look

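The region over the Pigv start beside Arid1a had a rank percentile of 9.8 in WT 3, far below the other WT libraries, the highest of which was 80.5. The gap to the nearest other library was 0.926 of the group's range, above Dixon's 95% critical value for 4 samples. Of 20 sets of 4 WT values tested 1 was singled out, and chance does so for about 1 in 20.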

How the results depend on the processing

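Of 441 per-gene differences recomputed under an alternative, none passed the threshold, and many could not. For Homo or Het against WT, leaving out 1 of their own libraries sets the smallest Fisher's exact p at 0.0667 before adjustment. For Homo against Het it is 0.1. Of the 441 differences, 361 kept their sign or stayed at 0, 37 left 0, 35 became 0 and 8 reversed. With lists of equal length the presence difference in percentage points was 33.3 at Bcl7c for Homo minus WT, and 33.3 at Ss18 and 50 at Bcl7c for Het and Homo minus WT. At equal depth it was 8.3 at Arid1a and 16.7 at Bcl7c for Het and Homo minus WT. Within 1 kb of a start it was 8.3 at Smarca2 for Homo minus WT, for Het minus WT and for Het and Homo minus WT. The cause was not tested.

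Member regions called in all of one group and none of the other numbered 0 with the stricter threshold, equal length and equal depth for Homo against WT and for Het and Homo against WT. For Het against WT they numbered 2 of 16 with the stricter threshold (Smarca4 and Ss18), beside 5.8% of all regions, and 0 at equal length. Member genes for Het against WT numbered 2 of 9 with the stricter threshold (Smarca4 and Ss18), beside 7.15% of all genes, and 1 of 9 at equal depth (Smarca4), beside 0.929%. All equal-depth values rest on a single random draw, and the Smarca4 pattern on the loss of the Het 1 peak in it. Leaving out each replicate gave 1 to 4 regions and 0 to 1 genes for Homo against WT, 1 to 2 regions and 0 to 1 genes for Het against WT, and 0 to 1 of each for Homo against Het. For Het and Homo against WT it gave 1 to 1 regions and 0 to 0 genes. Without Homo 3 the 4 regions were the Arid1a inner start, the Tigd3 start near Dpf2 and both Bcl7b regions, beside 18.4% of all regions, and Bcl7b was the gene, beside 23.1% of all genes. For Het against WT Smarca4 joined without Het 1, beside 13.4% of all genes, and Ss18 without Het 2, beside 8.44%.

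The replicate block compared same-numbered libraries, so WT 4 was left out. With this block, 0 member genes were called in all of one group and none of the other in each of the 3 comparisons. The smallest exact permutation p over 27 differences was 0.5, where 3 pairs cannot go below 0.25. After the group mean was subtracted at each region, the deviations of same-numbered libraries correlated at -0.14 to 0.01 over 9 pairs, 0 of them above 0.1. The titles do not say that the numbers pair mice, so the numbers were not taken as pairs. An absent peak was not called in that list, and its absence does not show closed chromatin. Depth and the share of WT regions found did not follow each other in every library: depth was 0.738 in Het 3 and 0.696 in Het 1, with shares of 39.6% and 79.6%.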

Other observations

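Among the 20 other subunit genes, Pbrm1, which encodes the polybromo subunit of PBAF, had a peak within 1 kb of a start in all 10 libraries, Homo 2 included. In Homo 2 15.9% of the genes with such a peak in any library had one, and 0 of the 9 members did. Pbrm1 was singled out after its values were seen. Smarcc2 and Phf10 were called there in 9 of 10 libraries, as Bcl7c was, and these were also chosen after their values were seen.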
